A study of Homo sapiens with 6 samples.

Results

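Voltage-gated ion channel genes were chosen by gene symbol, as the genes whose names begin with CACNA, CACNB or CACNG and a digit, with SCN, a number and A or B, or with KCN, letters and a number. Of the 62703 genes measured, 135 met this rule after antisense and intronic transcripts named after a channel were left out. The rule follows names and not gating. By gene family, 60 of the 135 encode pore subunits of channels classed as voltage-gated, namely 10 sodium channel, 10 calcium channel and 40 potassium channel genes. Another 43 encode potassium channels of other kinds, of which 16 are inward rectifiers and 15 are two-pore-domain leak channels. The other 12 of these are pore or auxiliary subunits of families classed as calcium- or sodium-activated, whatever the gating of each member. The remaining 32 genes encode auxiliary subunits.

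RNA-seq was performed on PANC-1, an established human pancreatic cancer cell line. DKK1-SE is a super-enhancer close to DKK1, the gene of a secreted inhibitor of Wnt signalling. The DKK1-SE-/- cells, abbreviated KO, had lost its component enhancer e1 from both alleles through CRISPR/Cas9 editing and descended from a single subclone, and the DKK1-SE+/+ cells, abbreviated WT, were PANC-1 cells that kept the enhancer. Each genotype had 3 samples labelled as biological replicates, and the study's methods state at least 3 independent replicates for every experiment without saying whether these samples were separate cultures. With 1 subclone, p-values measure only the spread between these samples. The WT libraries held 21822314, 16475810 and 18803154 expected counts, and the KO libraries held 17359835, 20098086 and 17804764.

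Voltage-gated sodium channels open within milliseconds of a depolarisation and carry the upstroke of the action potential, voltage-gated calcium channels turn the same signal into calcium entry, and voltage-gated potassium channels bring the membrane back to rest. Each is built around a pore subunit, called alpha, alpha1 or simply the potassium channel protein, and auxiliary subunits set its trafficking and kinetics. Epithelial and carcinoma cells do not fire action potentials in the way of neurons, but they hold a membrane potential and express some of these genes.

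DKK1 was read first because it checks the genotype labels. Its level was 229.21, 245.8 and 198.53 TPM (a transcript abundance scaled by gene length and library) in the WT samples and 66.75, 79.75 and 82.66 TPM in the KO samples. Every KO sample was below every WT sample, with a log2 fold change (KO over WT) of -1.45 ± 0.112 (SE, n = 3 per group, edgeR adjusted p = 6.16e-06). The two-sided exact permutation test of TPM gave p = 0.1, the smallest p that 3 against 3 samples allow.

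The cell type was compared with marker genes. All 8 ductal epithelial and PANC-1 markers were tested. At an adjusted p under 0.05, 3 rose (KRT8, KRT18 and KRT19) and 3 fell (VIM, SOX9 and EPCAM), beside 19.8% and 19.5% of all tested genes. VIM, an intermediate filament gene of mesenchymal-like cells, was the most abundant of them, and the list summed to 5650, 6170 and 6520 TPM in WT and to 6010, 5660 and 5410 TPM in KO. Of 12 neuronal and neuroendocrine markers, 6 were tested, 1 rose and 2 fell, where 19.8% and 19.5% of all tested genes did. The tubulin gene TUBB3 rose (log2 fold change 0.62), and SYT1 (-1.38) and ENO2 (-0.76) fell. The 12 markers summed to 185, 187 and 207 TPM in WT and 224, 212 and 202 TPM in KO, with TUBB3 the most abundant. ELAVL4, NEUROD1 and STMN2 had no count in any sample. None of the 7 muscle, 5 Schwann and glial or 6 islet and acinar markers had enough counts to be tested. MYOD1, MYOG, TNNT2, S100B, INS, SST and AMY2A were at 0 counts in every sample.

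The muscle list, led by DES, had no tested gene and summed to 0.37, 0.9 and 0.32 TPM in WT and 0, 0 and 0.36 TPM in KO. The fibroblast, endothelial and immune lists each had 1 tested gene. The fibroblast list, led by COL3A1, summed to 2.91, 2.14 and 2.32 TPM in WT and 4.19, 3.94 and 4.1 TPM in KO, COL3A1 rose and FAP was at 0. The endothelial list, led by KDR, which fell, summed to 2.54, 2.57 and 2.12 TPM in WT and 0.44, 0.55 and 0.58 TPM in KO. The immune list summed to 43.3, 40.9 and 46.5 TPM in WT and 68.1, 65.1 and 67.2 TPM in KO, nearly all of it CD68, a lysosomal protein gene that rose. The leukocyte gene PTPRC had at most 1 count in a sample. The glial list, led by GFAP, stayed at or under 1.11 TPM and the islet and acinar list, led by GCG, at or under 0.33 TPM in every sample. The part of these lists in the channel results was not tested.

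Of the 135 channel genes, 47 had enough counts to be tested and 88 did not. Of those 88, 23 had no count in any of the 6 samples, and 73 never reached 10 counts in any sample. At a Benjamini-Hochberg adjusted p under 0.05 in edgeR, 20 of the 47 tested channel genes passed, a share of 42.6% beside 39.3% of the 15179 tested genes. Of these, 9 were higher in KO (19.1%, beside 19.8% of all tested genes) and 11 were lower (23.4%, beside 19.5%). The median log2 fold change was 0.08 over the tested channel genes and 0.03 over all tested genes. With an offset for gene GC content, 7 channel genes were higher (14.9%, beside 20.0% of all tested genes) and 15 lower (31.9%, beside 20.9%). With limma on log2(TPM + 1), 5 were higher (10.6%, beside 9.82%) and 10 lower (21.3%, beside 17.6%).

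DEGs, taken as genes at least 1.2 apart on the log2 scale in either direction with an unadjusted p under 0.05, numbered 13 among the 47 channel genes (27.7%), beside 8.66% of all tested genes. Of them, 6 were higher in KO, where 4.96% of all tested genes met the same limits, and 7 were lower, where 3.7% did. The median absolute log2 fold change was 0.54 over tested channel genes and 0.38 over all tested genes. With limma on log2(TPM + 1), where the pseudocount shrinks the changes of low genes, only 3 of the 47 were DEGs (6.38%, beside 3.37% of all genes). Of 31 channel genes with a mean TPM of at least 1, 6 were (19.4%, beside 6.97%). With a limit of 1.2 on the linear scale the shares were 48.9% and 47.6%. The share was not compared with that of genes of like abundance. Among the 21 tested pore subunits of channels classed as voltage-gated, 11 passed (52.4%, beside 39.3% of all tested genes) and 10 were DEGs (47.6%, beside 8.66%). Among the 15 tested auxiliary subunits 6 passed (40%) and 1 was a DEG (6.67%), and among the 11 tested potassium channels of other kinds 3 passed (27.3%) and 2 were DEGs (18.2%). Groups did not overlap in TPM for 20 of the 47 channel genes (42.6%), beside 44.2% of all tested genes. In bulk RNA, fewer cells with a transcript and less of it per cell cannot be told apart.

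**Figure D1:**
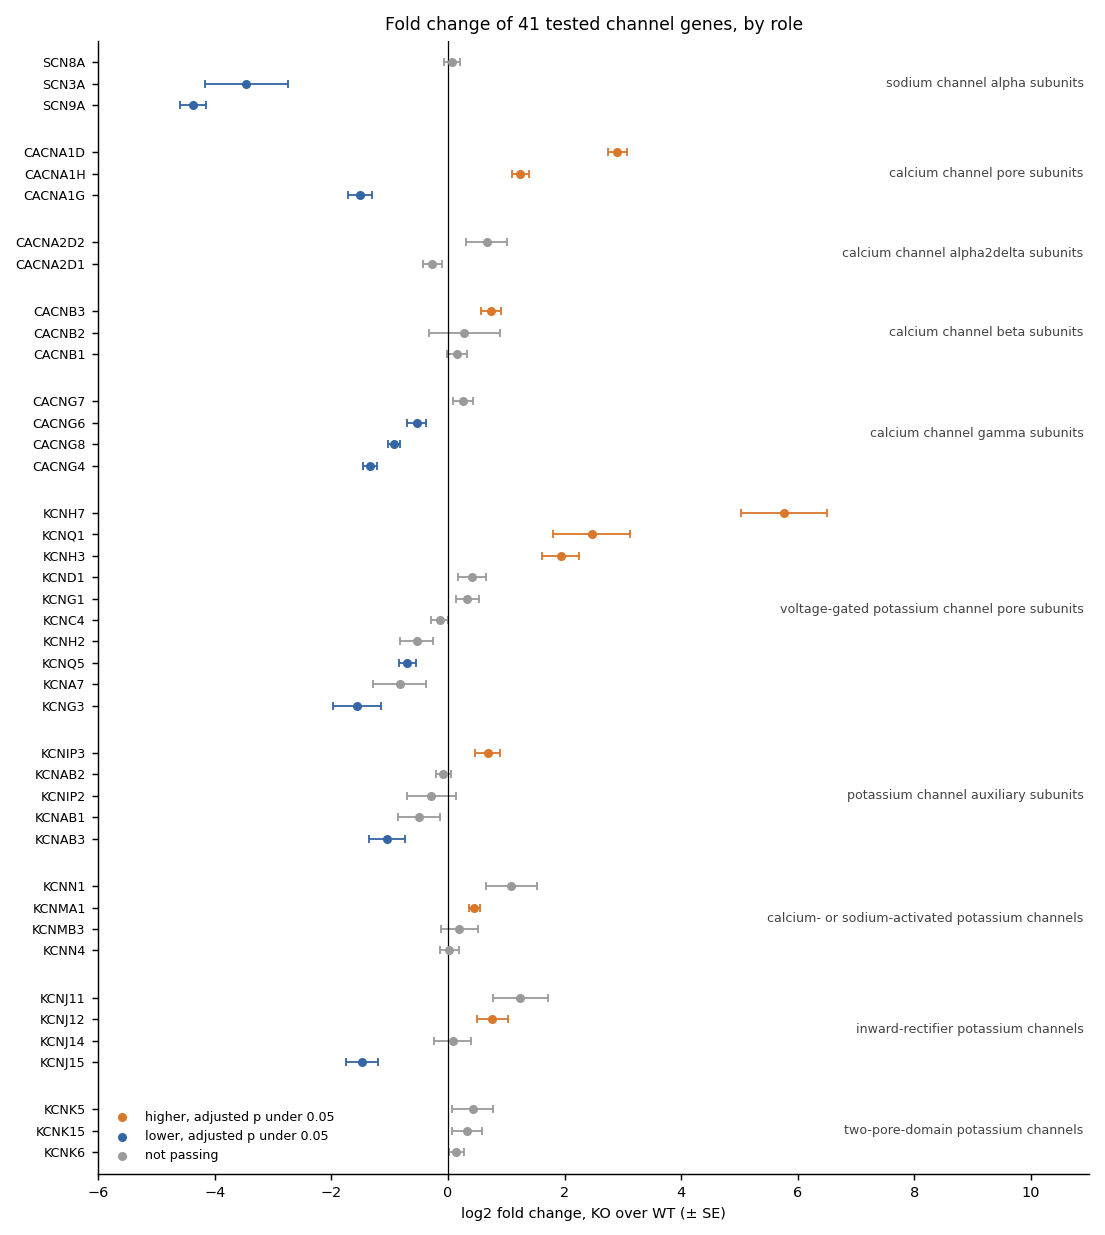
Log2 fold change (KO over WT, horizontal axis) with its SE for 41 of the 47 tested channel genes, grouped by role, from 3 KO and 3 WT samples. Orange points are 9 genes higher and blue points 10 genes lower at an adjusted p under 0.05, and grey points did not pass; the sodium channel alpha genes reach from -4.38 to 0.07.

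Of the sodium channel alpha subunit genes, SCN9A and SCN3A fell in KO and SCN8A did not pass. SCN9A, which encodes Nav1.7, a channel known from pain-sensing neurons, was at 6.86, 5.33 and 5.04 TPM in WT and at 0.64, 0.15 and 0.64 TPM in KO. These values stood on 828, 593 and 612 counts in WT and on 24, 22 and 43 counts in KO. Every KO sample lay far below every WT sample, and SCN9A was 20.8-fold lower (log2 fold change -4.38 ± 0.22, edgeR adjusted p = 3.13e-07), the smallest p among the channel genes. Its TPM fell less than its counts, from a mean of 5.74 in WT to 0.477 in KO. Limma gave a log2 fold change of -3.49 on log2(TPM + 0.1). It gave -2.2 on log2(TPM + 1), where the pseudocount is above every KO value and shrinks the change. The transcript length implied by counts over TPM was 9097, 11401 and 10953 bases in WT and 3447, 11301 and 6358 bases in KO. In WT SCN9A was the most abundant sodium channel alpha gene per length, and in KO that place went to SCN8A.

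SCN3A, which encodes Nav1.3 of embryonic neurons, had 13, 14 and 24 counts in WT and 0, 1 and 3 counts in KO. The ratio of counts scaled by library was 11.7 (WT over KO), with an exact 95% interval of 4.31 to 44.6 that covers counting error only. Its fitted log2 fold change was -3.46 ± 0.712 (edgeR adjusted p = 0.0032), and the call was lost with limma on log2(TPM + 1), where the pseudocount is above every value of the gene (log2 fold change -0.27, adjusted p = 0.0989). With 1 sample left out its log2 fold change ranged from -4.72 to -2.99.

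SCN8A, which encodes Nav1.6, was at 2.94, 2.78 and 2.49 TPM in WT and 2.52, 2.43 and 3.11 TPM in KO. The groups overlapped (log2 fold change 0.07 ± 0.142, edgeR adjusted p = 0.742). SCN2A, named after its values were seen, was too low to be tested, with 7, 5 and 9 counts in WT and 0, 2 and 0 in KO. SCN1A and SCN10A had no count in any sample. Summed over all 10 alpha genes, the level was 10.7, 9.24 and 8.75 TPM in WT and 3.48, 2.86 and 4.05 TPM in KO.

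**Figure D2:**
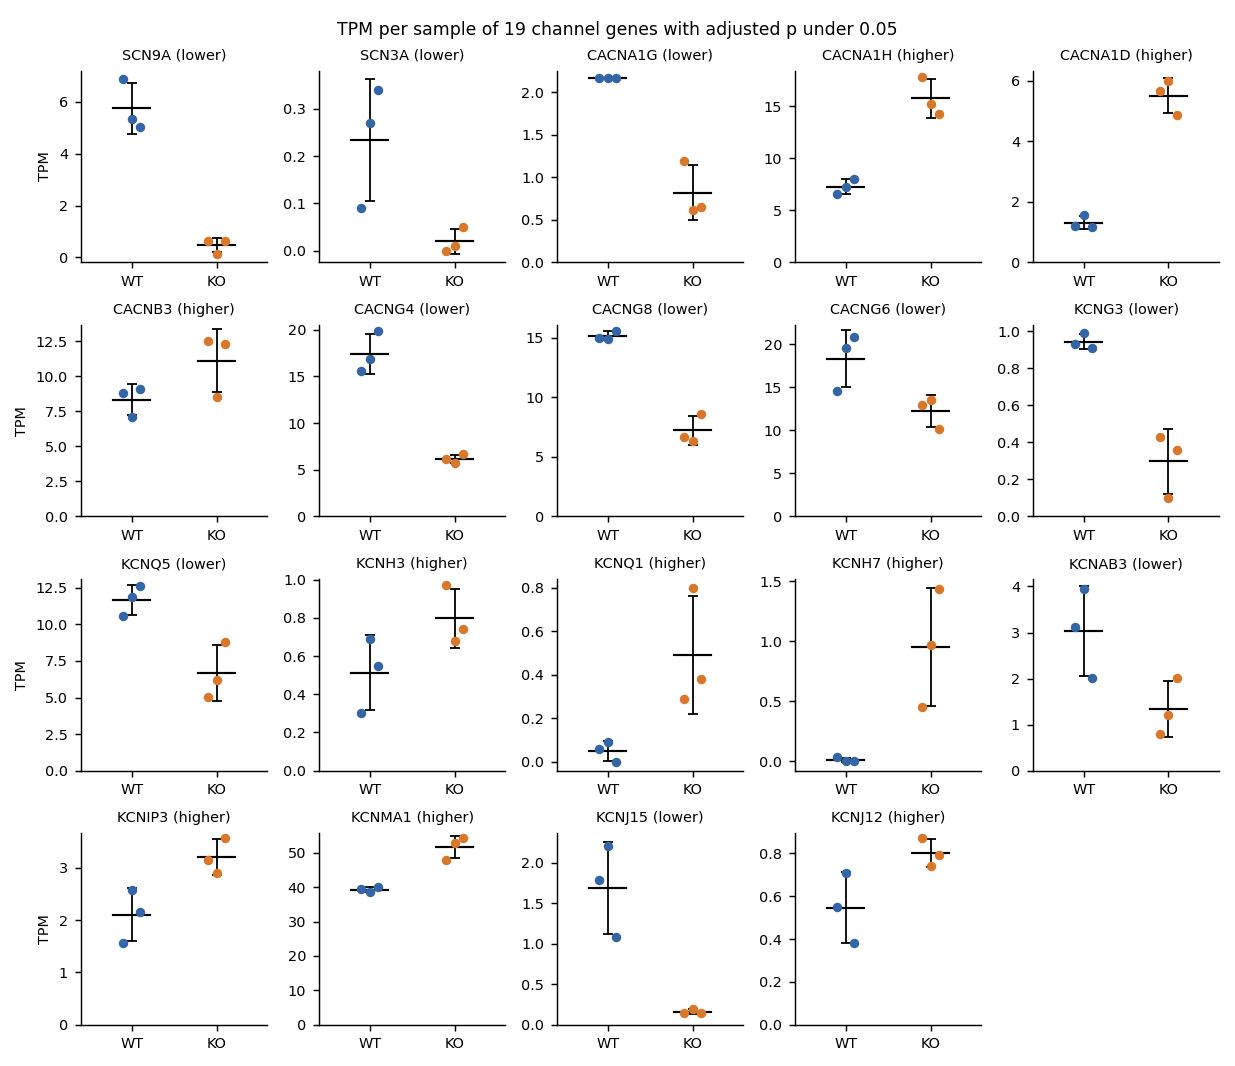
TPM (vertical axis, from 0) in each of the 3 WT (blue) and 3 KO (orange) samples for 19 of the 20 channel genes with an adjusted p under 0.05, with the mean and SD as black lines. SCN9A lies between 5.04 and 6.86 TPM in WT and between 0.15 and 0.64 TPM in KO, whereas the TPM ranges of CACNB3 and KCNH3 overlap and those of KCNAB3 meet.

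All 3 tested calcium channel pore genes passed, 2 higher and 1 lower, where 39.3% of all tested genes passed. CACNA1D encodes Cav1.3, an L-type channel that opens at relatively negative voltages. It was at 1.19, 1.57 and 1.17 TPM in WT and 5.67, 5.97 and 4.85 TPM in KO, from 44, 38 and 44 counts and 257, 302 and 311 counts. Every KO sample was above every WT sample, a 7.46-fold higher level (log2 fold change 2.9 ± 0.163, edgeR adjusted p = 6.58e-07). Its TPM rose less than its counts, from a mean of 1.31 in WT to 5.5 in KO, with a log2 fold change of 2 from limma on log2(TPM + 0.1). On log2(TPM + 1) it was 1.49, where the pseudocount is close to the WT values and shrinks the change. The implied transcript length was 2787, 2488 and 3430 bases in WT and 4173, 3903 and 6041 bases in KO.

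The other tested calcium channel pore genes encode T-type channels, which open near the resting potential. CACNA1H (Cav3.2) was at 6.53, 7.29 and 7.97 TPM in WT and 17.88, 15.23 and 14.25 TPM in KO, 2.36-fold higher (log2 fold change 1.24 ± 0.146, edgeR adjusted p = 0.000105). CACNA1G (Cav3.1) was at 2.17 TPM in each of the 3 WT samples and at 1.19, 0.61 and 0.65 TPM in KO, 2.84-fold lower (log2 fold change -1.51 ± 0.213, edgeR adjusted p = 0.00036). The groups did not overlap for either gene, so the T-type genes CACNA1H and CACNA1G went opposite ways. Summed over the 10 pore genes, the level was 10.1, 11.2 and 11.5 TPM in WT and 25.0, 22.4 and 20.5 TPM in KO. CACNA1E, CACNA1F and CACNA1S had no count in any sample, and CACNA1C, the cardiac L-type gene, had 0 counts in each WT sample and 3, 4 and 0 in KO (named after its values were seen).

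Of the auxiliary calcium channel subunits, the beta subunits bind the pore inside the cell and the alpha2delta subunits outside it, and both raise its surface level. CACNB3 rose from 189, 148 and 215 counts in WT to 312, 276 and 257 counts in KO (log2 fold change 0.74 ± 0.174, edgeR adjusted p = 0.00664). In TPM the groups overlapped, because KO replicate 2 (8.54 TPM) was within the WT values of 8.83, 7.06 and 9.11 TPM. The call was lost with limma on log2(TPM + 1) (adjusted p = 0.176), and the GC-content offset gave a log2 fold change of 0.48. CACNB1 (3.67, 3.63 and 2.28 TPM in WT and 4.06, 2.15 and 4.33 TPM in KO) did not pass, nor did the low CACNB2, whose samples held between 4 and 20 counts. CACNA2D1 was at 8.9, 8.05 and 9.81 TPM in WT and 3.96, 5.96 and 7.68 TPM in KO. Its TPM ranges did not overlap, but its counts gave a log2 fold change of -0.27 ± 0.163 that did not pass (edgeR adjusted p = 0.209). It was -0.12 without KO replicate 1, -0.47 without KO replicate 3, where it passed (edgeR adjusted p = 0.0149), and 0.14 with the GC-content offset. CACNA2D2 had between 14 and 26 counts in each sample and did not pass either.

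Of the 4 tested gamma genes, 3 were lower in KO and none was higher, beside 19.5% and 19.8% of all tested genes. Most gamma proteins are known less as calcium channel subunits than as TARPs, which carry AMPA-type glutamate receptors to the synapse. CACNG4 and CACNG8 are TARPs of this kind. CACNG4 was at 15.58, 16.83 and 19.81 TPM in WT and 6.14, 5.77 and 6.65 TPM in KO, 2.54-fold lower (log2 fold change -1.34 ± 0.127, edgeR adjusted p = 2.53e-05). CACNG8 was at 15.04, 14.89 and 15.63 TPM in WT and 6.7, 6.37 and 8.62 TPM in KO, 1.91-fold lower (log2 fold change -0.93 ± 0.107, edgeR adjusted p = 9.34e-05). The groups lay apart for both genes.

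CACNG6, which encodes a subunit related to that of skeletal muscle, was at 14.55, 19.62 and 20.88 TPM in WT and 12.99, 13.59 and 10.16 TPM in KO. The ranges did not overlap, but the gap was small (log2 fold change -0.54 ± 0.169, edgeR adjusted p = 0.0273), and without WT replicate 2 or WT replicate 3 the call was lost (highest adjusted p = 0.105). With the GC-content offset its log2 fold change was -0.87 (adjusted p = 9.61e-05 in edgeR). CACNG7 lies near CACNG6 and CACNG8 on chromosome 19 and overlapped between groups, at 8.04, 11.97 and 11.1 TPM in WT and 13.83, 8.3 and 9.87 TPM in KO (log2 fold change 0.25 ± 0.171, edgeR adjusted p = 0.272). So the neighbours CACNG6 and CACNG8 fell and CACNG7 did not pass. In total the 8 gamma genes gave 53.2, 63.3 and 67.6 TPM in WT and 39.7, 34.1 and 35.4 TPM in KO.

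Of the 40 pore genes of voltage-gated potassium channels, 14 were tested, 3 rose, 2 fell and 9 did not pass (19.8% of all tested genes rose and 19.5% fell). The 3 that rose were all low in WT. KCNH7, which encodes an ERG-type channel, had 2, 0 and 0 counts in WT and 19, 52 and 49 counts in KO. The scaled ratio was 65.3 (KO over WT), with an exact 95% counting interval of 17.7 to 545.0, and the fitted log2 fold change was 5.76 ± 0.731 (edgeR adjusted p = 0.000173). The size is poorly known, as the log2 fold change ranged from 5.27 to 8.29 with 1 sample left out. Limma on log2(TPM + 0.1) gave 3.15, but there the pseudocount is above every WT value and shrinks the change. KCNH7 was thus close to 0 in WT and low but counted in all 3 KO samples, where it reached 0.45, 0.97 and 1.44 TPM.

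KCNQ1 encodes the pore of the slow potassium current of heart and of many epithelia. It had 3, 3 and 0 counts in WT and 10, 12 and 10 counts in KO, a scaled ratio of 5.8 with an exact 95% counting interval of 2.39 to 17.0 (fitted log2 fold change 2.46 ± 0.666, edgeR adjusted p = 0.0135). The KO samples were all higher, at counts so low that the size of the change is poorly known. Its log2 fold change ranged from 1.91 to 2.95 with 1 sample left out. The antisense gene KCNQ1OT1 overlaps it and had far more counts, 676, 486 and 591 in WT and 419, 566 and 737 in KO. KCNH3, an ELK-type channel gene of the forebrain, had 14, 11 and 11 counts in WT and 45, 44 and 38 counts in KO (log2 fold change 1.93 ± 0.318, edgeR adjusted p = 0.000892). Its TPM values told less, at 0.3, 0.69 and 0.55 in WT and 0.97, 0.68 and 0.74 in KO, so that the groups overlapped and the call was lost with limma on log2(TPM + 0.1) (log2 fold change 0.59, adjusted p = 0.231).

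KCNQ5, which encodes an M-type channel that damps repetitive firing, was the most abundant pore gene of this class in WT. It was at 10.58, 11.86 and 12.61 TPM in WT and 5.01, 6.19 and 8.8 TPM in KO, 1.63-fold lower with no overlap (log2 fold change -0.7 ± 0.148, edgeR adjusted p = 0.00364). KCNG3 encodes a silent subunit, which forms no channel alone and alters the Kv2 channels it joins. It was at 0.93, 0.99 and 0.91 TPM in WT and 0.43, 0.1 and 0.36 TPM in KO, 2.94-fold lower (log2 fold change -1.56 ± 0.416, edgeR adjusted p = 0.0125). The KO samples were all below the WT samples and spread more widely. The silent subunit gene KCNG1, whose mean in KO (6.18 ± 0.612 TPM, SD) was within the spread of KCNQ5 (6.67 ± 1.94 TPM), overlapped between groups, with a log2 fold change of 0.33 ± 0.201 (edgeR adjusted p = 0.219). The tested pore genes KCNA7, KCNC4, KCND1 and KCNH2 had log2 fold changes between -0.83 and 0.41 and did not pass.

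The auxiliary subunits of potassium channels include cytoplasmic beta subunits related to aldo-keto reductases and calcium-binding KChIP proteins. KCNAB2 was the most abundant, at 11.39, 12.53 and 14.65 TPM in WT and 11.71, 15.36 and 10.49 TPM in KO, and the groups overlapped (log2 fold change -0.08 ± 0.135, edgeR adjusted p = 0.651). With the GC-content offset it passed as lower (log2 fold change -0.39, adjusted p = 0.00452). KCNAB3 fell from 67, 58 and 47 counts to 14, 33 and 31 counts (log2 fold change -1.04 ± 0.309, edgeR adjusted p = 0.0209). In TPM the lowest WT sample and the highest KO sample met at 2.01, and the call was lost without WT replicate 2, without KO replicate 1 and with limma on log2(TPM + 0.1) (highest adjusted p = 0.081). KCNIP3, whose product KChIP3 is also the transcriptional repressor DREAM, rose from 61, 57 and 65 counts to 97, 87 and 87 counts (log2 fold change 0.68 ± 0.21, edgeR adjusted p = 0.024). All KO samples were above all WT samples, but the call was lost in 8 of its 16 alternatives, among them without WT replicate 1, without WT replicate 2 and without KO replicate 1 (highest adjusted p = 0.121).

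The most abundant channel gene per length in both groups was KCNMA1, which encodes the pore of the BK channel, opened by both calcium and voltage. It was at 39.42, 38.43 and 40.02 TPM in WT and 48.01, 52.72 and 54.19 TPM in KO, a 1.36-fold rise with no overlap (log2 fold change 0.45 ± 0.0985, edgeR adjusted p = 0.00464). Without WT replicate 1 the adjusted p was 0.0534. KCNN4, the intermediate-conductance calcium-activated channel gene of epithelia and blood cells, was the second in WT and the third in KO, at 17.28, 20.56 and 19.07 TPM and at 17.82, 18.02 and 14.22 TPM. The groups overlapped and the counts did not pass (log2 fold change 0.02 ± 0.159, edgeR adjusted p = 0.919), while the GC-content offset gave -0.29 (adjusted p = 0.0393). KCNMB3, a BK beta subunit gene, had 39, 63 and 35 counts in WT and 46, 54 and 48 counts in KO and did not pass.

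Inward rectifiers pass potassium best near the resting potential and have no voltage sensor. KCNJ15 (Kir4.2) fell from 81, 46 and 63 counts in WT to 17, 28 and 17 counts in KO, 2.8-fold lower (log2 fold change -1.48 ± 0.278, edgeR adjusted p = 0.00187). Its TPM fell further, from 1.79, 2.2 and 1.08 to 0.14, 0.2 and 0.15 TPM, and limma on log2(TPM + 0.1) gave a log2 fold change of -2.72. The implied transcript length was 3429, 2134 and 5264 bases in WT and 10894, 10834 and 10888 bases in KO, so the deposited values assign the remaining KO counts to longer transcripts. The same measure rose for KCNH3, from 3516, 1633 and 1805 bases to 4265, 4986 and 4845 bases, and its counts rose more than its TPM. KCNJ12 had 46, 41 and 28 counts in WT and 63, 64 and 52 counts in KO (log2 fold change 0.76 ± 0.264, edgeR adjusted p = 0.0415). It passed in 4 of its 15 alternatives, and the near-identical copy KCNJ18 (0, 0 and 3 counts in WT and none in KO) may share its reads. KCNJ14 was between 33 and 68 counts in each sample and did not pass. KCNJ11 had only 9, 5 and 3 counts in WT and 12, 13 and 12 counts in KO, and its TPM ranges overlapped. Its log2 fold change was 1.24 ± 0.467 (edgeR adjusted p = 0.0557), with an unadjusted p that made it a DEG.

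Two-pore-domain channels carry the background potassium leak that sets the resting potential. KCNK6 was the most abundant, at 15.37, 17.45 and 17.15 TPM in WT and 18.74, 15.14 and 19.94 TPM in KO. The groups overlapped, and KCNK6, KCNK15 and KCNK5, the 3 tested of 15, did not pass (log2 fold changes 0.14, 0.32 and 0.42).

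**Figure D3:**
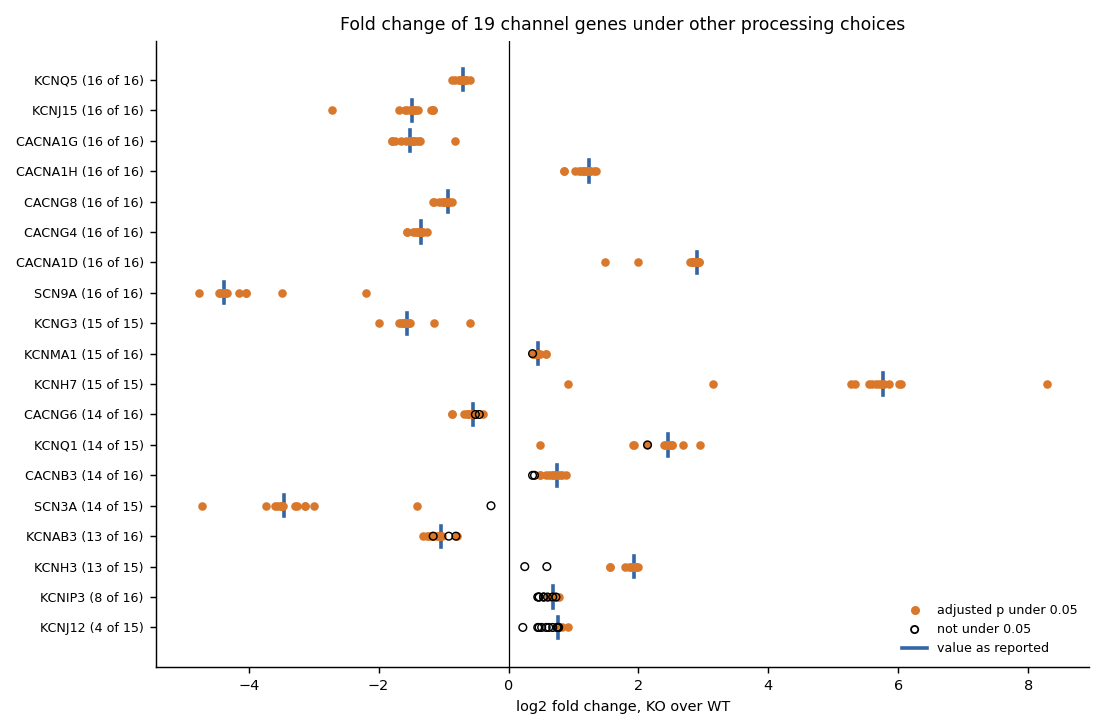
Log2 fold change (horizontal axis) of 19 of the 20 channel genes under each other processing choice, with the reported value as a blue bar, choices with an adjusted p under 0.05 as filled points and the others as open circles; the counts in parentheses give how many choices passed. SCN9A, CACNA1D, CACNG4, CACNG8 and CACNA1H passed in 16 of 16, and KCNIP3 and KCNJ12 in 8 of 16 and 4 of 15.

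By mean TPM, the channel genes of WT ranked KCNMA1 (39.3 ± 0.803, SD, n = 3), KCNN4 (19.0 ± 1.64), CACNG6 (18.3 ± 3.35), CACNG4 (17.4 ± 2.17), KCNK6 (16.7 ± 1.12) and CACNG8 (15.2 ± 0.391). The places from KCNN4 to KCNK6 lie within their spread. In KO the order was KCNMA1 (51.6 ± 3.23), KCNK6 (17.9 ± 2.5), KCNN4 (16.7 ± 2.14), CACNA1H (15.8 ± 1.88), KCNAB2 (12.5 ± 2.53) and CACNG6 (12.2 ± 1.83), in which KCNMA1 alone stands clear of its neighbour. CACNA1H was outside the first 10 in WT and the fourth in KO, whereas CACNG4 left the first 10. The summed level of all 135 genes was 232.0, 251.0 and 259.0 TPM in WT and 234.0, 224.0 and 238.0 TPM in KO, which overlap.

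SCN9A, SCN3A and KCNH7 lie close together on chromosome 2, where SCN2A, SCN1A and SCN7A also lie. The midpoint of SCN3A is 1230.2 kb and that of KCNH7 3770.9 kb from the start site of SCN9A, measured on hg38 with GENCODE version 44. Within 5 Mb of SCN9A, the median over 25 other tested genes was -0.57 on the log2 scale, with 15 lower and 2 higher at an adjusted p under 0.05. SCN9A and SCN3A therefore fell among neighbours that mostly fell, but by more than that median. KCNH7 rose in the same stretch, as did LRP2 (log2 fold change 4.51, edgeR adjusted p = 0.000598), which was named after its values were seen.

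**Figure D4:**
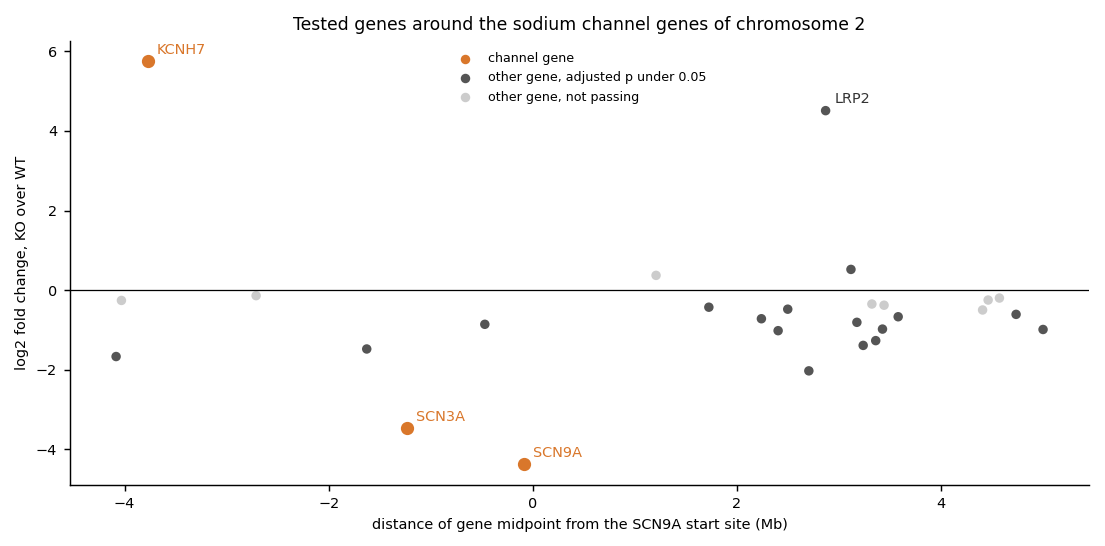
Log2 fold change (KO over WT, vertical axis) of tested genes against the distance of their midpoint from the SCN9A start site (Mb), with channel genes in orange and other genes in dark grey where their adjusted p was under 0.05. SCN9A (-4.38) and SCN3A (-3.46) are the lowest points and KCNH7 (5.76) is the highest.

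Other channel genes also lay among neighbours that leaned one way. Around CACNA1H on chromosome 16, the median log2 fold change of 176 tested genes within 5 Mb was 0.48, with 92 higher and 1 lower. With the GC-content offset its own log2 fold change was 0.86 in place of 1.24. Around KCNMA1 on chromosome 10 the median of 67 genes was 0.45, equal to its own value. CACNA1D rose although the median of its 136 neighbours on chromosome 3 was -0.3 (7 higher and 50 lower), and CACNG8 fell although the median of its 240 neighbours on chromosome 19 was 0.26. The part of these regional values in the changes of the channel genes was not tested.

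Several of these genes share their place with another gene. On opposite strands, KCNH7 overlaps GCA (95, 55 and 71 counts in WT and 43, 57 and 68 in KO), CACNA1D overlaps DCP1A and CHDH, KCNH3 overlaps MCRS1 and SCN3A overlaps SCN2A. KCNJ11 likewise overlaps NCR3LG1 and KCNMB3 overlaps PIK3CA, and both partners fell (log2 fold changes -0.85 and -0.74, edgeR adjusted p = 0.000264 and 0.0066). On the same strand, KCNJ14 overlaps GRWD1 (2163, 1786 and 2118 counts in WT and 2157, 2434 and 1728 in KO). The library kit kept strand, but whether the counting used it is not given in the sources used here. Small counts, among them those of KCNH7, KCNH3, KCNQ1, SCN3A, KCNJ11 and KCNMB3, are therefore uncertain. Strand cannot separate KCNJ14 from GRWD1 where they overlap. GCA and MCRS1 did not pass (adjusted p = 0.379 and 0.486), and CHDH fell (log2 fold change -0.73, adjusted p = 0.00226 in edgeR) while CACNA1D rose.

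The promoter windows of SCN9A, CACNA1D, KCNMA1 and KCNJ15 are printed here, the first 2 for their small p-values, KCNMA1 for its abundance and KCNJ15 because it held an AP-1 motif. Windows of 300 bases (250 before and 50 after the RefSeq start, GRCh38.p14) were given for 97 of the 135 genes and for 9 of the 20 that passed. The RefSeq starts of CACNA1D and KCNJ15 lie 165.6 and 117.0 kb inside the GENCODE gene, so these windows are not at the outermost start. Capitals mark the AP-1 letters TGANTCA and the GC box letters GGGCGG on either strand, and overlapping matches run together; TATAAA was searched too.
SCN9A promoter, chr2:166375895-166376194, minus strand: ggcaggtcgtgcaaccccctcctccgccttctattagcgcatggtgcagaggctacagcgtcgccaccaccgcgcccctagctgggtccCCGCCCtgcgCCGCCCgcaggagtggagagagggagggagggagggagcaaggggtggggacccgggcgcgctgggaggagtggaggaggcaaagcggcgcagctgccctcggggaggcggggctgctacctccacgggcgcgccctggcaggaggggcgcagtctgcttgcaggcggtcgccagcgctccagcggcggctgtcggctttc
CACNA1D promoter, chr3:53494361-53494660, plus strand: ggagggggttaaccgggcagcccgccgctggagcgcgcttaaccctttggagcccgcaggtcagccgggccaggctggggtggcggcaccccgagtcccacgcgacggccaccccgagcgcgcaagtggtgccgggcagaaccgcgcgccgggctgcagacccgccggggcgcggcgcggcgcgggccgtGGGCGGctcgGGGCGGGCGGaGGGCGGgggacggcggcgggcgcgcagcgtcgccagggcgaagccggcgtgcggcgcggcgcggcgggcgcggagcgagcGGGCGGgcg
KCNMA1 promoter, chr10:77637759-77638058, minus strand: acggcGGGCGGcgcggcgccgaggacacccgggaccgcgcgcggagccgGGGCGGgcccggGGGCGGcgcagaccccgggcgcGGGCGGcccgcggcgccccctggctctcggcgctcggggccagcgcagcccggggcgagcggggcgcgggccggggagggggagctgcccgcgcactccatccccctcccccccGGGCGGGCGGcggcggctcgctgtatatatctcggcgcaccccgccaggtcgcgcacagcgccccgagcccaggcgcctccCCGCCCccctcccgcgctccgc
KCNJ15 promoter, chr21:38272258-38272557, plus strand: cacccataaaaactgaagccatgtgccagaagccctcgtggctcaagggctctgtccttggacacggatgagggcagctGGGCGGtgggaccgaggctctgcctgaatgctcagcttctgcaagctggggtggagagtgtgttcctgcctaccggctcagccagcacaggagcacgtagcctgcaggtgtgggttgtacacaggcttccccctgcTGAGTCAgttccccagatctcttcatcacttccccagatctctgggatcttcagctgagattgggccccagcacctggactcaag

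TGANTCA was in 7.71% of all 35116 windows and, of the 9 channel genes that passed, in KCNJ15 alone. GGGCGG was in 45.0% of all windows, and all 9 held it, as did 22 of the 27 tested channel genes with a window. TATAAA was in 11.5% of all windows and in none of the 9. SCN9A held 2 matches to the GC box, CACNA1D 5 and KCNMA1 7, with 28, 56 and 54 CG dinucleotides beside a median of 14 over all windows. KCNJ15, with 6, was the poorest in CG of the 9. So SCN9A, which fell, and CACNA1D and KCNMA1, which rose, alike had GC-rich windows. A match to these letters is a description of the reference sequence, and RefSeq's start need not be the one used in PANC-1.

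Of 38 related cation channel genes outside the naming rule (HCN, CatSper, TRP, CNG and others), 14 were tested, 3 were higher and 5 lower at an adjusted p under 0.05 (19.8% and 19.5% of all tested genes), with a median log2 fold change of 0.17. TRPV2, a calcium-permeable TRP channel gene, was at 24.07, 22.33 and 26.58 TPM in WT and 4.69, 4.06 and 3.68 TPM in KO (log2 fold change -2.45 ± 0.181, edgeR adjusted p = 4.56e-06). NALCN, the sodium leak channel gene, and TRPM7, a magnesium- and calcium-permeable channel with a kinase domain, fell with log2 fold changes of -1.17 and -0.86. Of the higher genes, the pacemaker channel gene HCN2 had a log2 fold change of 0.8, and the sperm channel genes CATSPER1 and CATSPER2 had 1.45 and 1.35. CATSPER2 has a pseudogene copy, and its mean TPM was lower in KO (1.36 in WT and 1.16 in KO) while its counts were higher.

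Of 29 genes for proteins that bind, anchor or regulate these channels or repress neuronal genes, 14 were tested, 4 rose and 4 fell, where 19.8% and 19.5% of all tested genes did (median log2 fold change 0.05 beside 0.03). RRAD, a small GTPase that inhibits L-type calcium channels, was at 1.6, 1.29 and 1.92 TPM in WT and 7.67, 6.87 and 6.21 TPM in KO (log2 fold change 2.25), and STAC, whose product also binds calcium channels, rose by 0.98. The third was the calmodulin gene CALM3 (0.48). ANK2 and ANK3, the ankyrins that hold sodium channels and other membrane proteins in place, fell with log2 fold changes of -1.57 and -1.31, and the calmodulin gene CALM2 with -0.86. Thus CALM2 and CALM3, which encode the same protein, went opposite ways. The list summed to 1560.0, 1430.0 and 1360.0 TPM in WT and 875.0, 1060.0 and 999.0 TPM in KO, with CALM2 most of the sum in WT.

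Of 21 calcium store and extrusion genes, 16 were tested, 3 rose and 5 fell, beside the same 19.8% and 19.5% of all tested genes (median log2 fold change -0.07). The store-operated channel genes ORAI2 and ORAI3 rose (0.65 and 0.74), as did the store pump gene ATP2A2 (0.27). The sodium-calcium exchanger gene SLC8A1 fell (-1.32), and so did the store release channel genes ITPR2 (-1.2) and RYR1 (-0.73). RYR1, the release channel of skeletal muscle, was at 23.53, 20.34 and 21.73 TPM in WT and 10.19, 10.73 and 13.1 TPM in KO, and the groups did not overlap. In WT these values stood on 508, 329 and 443 counts. SLC8A1 had 482, 331 and 376 counts in WT at only 5.04, 4.54 and 5.12 TPM. The deposited values thus assign RYR1 counts to shorter transcripts than those of SLC8A1. Whether they stand for the full-length channel transcript was not tested.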

How the data were processed

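Stranded mRNA libraries of total RNA from 3 WT and 3 KO samples of PANC-1 were sequenced. The authors deposited, per gene and sample, an expected count (not normalized, rounded here to whole numbers) and TPM (scaled by the authors for gene length and library). The deposited table also holds the authors' own comparison, a linear fold change ratio, log2 fold change, p-value and adjusted p-value, which was not used. The aligner, the counting program and its strand setting are not given in the sources used here, and the submitters' processing notes name hg38. Gene positions came from GENCODE version 44.

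Genes were filtered with filterByExpr (minimum count 10) and compared with edgeR 4.0.16 in R 4.3.3 (TMM factors, quasi-likelihood F test, no covariate), with Benjamini-Hochberg adjustment across the 15179 genes tested. The SE was the absolute log2 fold change divided by the square root of F. Alternatives used RLE factors, library size alone, DESeq2 1.42.0, limma 3.58.1 on TPM with a pseudocount of 1 or 0.1, other filters (no filter beyond a count of 1, or a mean TPM of at least 1), a fold limit of 1.2 on the linear scale, the replicate number as a block, a GC-content offset in 40 bins, and each sample left out. The fits were tested on simulated data. Ratios of low counts had exact binomial intervals at 95%, from scipy 1.17.1, covering counting error only. Implied transcript length was the count divided by TPM, scaled by the library's median of that value over listed gene length. That median was taken over genes with at least 50 counts and 1 TPM, and implied lengths of genes below those limits are rougher.

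Some members and 1 marker gene are not reported here by name, while counts and sums of sets include them. Otherwise, named were all members with an adjusted p under 0.05, the 3 most abundant tested members of each role class, members with at most 3 counts in every sample of one group and at least 10 in every sample of the other, and, from the other channel lists, up to 3 genes per direction with the smallest p. Other genes were named after their values were seen, and so were the 5 Mb window and the promoter motifs chosen. The members and lists were chosen with earlier results of these data known.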

Additional observations from a re-analysis of the deposited data

How the results depend on the processing

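As reported, 9 channel genes were higher and 11 lower. DEGs numbered 6 higher and 7 lower, and the higher DEGs include KCNJ11, which did not pass. Of the 20 genes that passed, 11 kept their call in all alternatives that tested them and 15 in all leave-one-out fits. Among the 11, KCNH7 and KCNG3 were not tested with a mean TPM of at least 1. DKK1 kept its call in all alternatives. Channel genes higher numbered 5 with a mean TPM of at least 1, 5 with limma on log2(TPM + 1) and 5 with limma on log2(TPM + 0.1). DEGs higher numbered 13 with no filter beyond a count of 1, 2 with a mean TPM of at least 1, 1 with limma on log2(TPM + 1), 3 with limma on log2(TPM + 0.1) and 11 with a linear limit of 1.2, and DEGs lower 4 with a mean TPM of at least 1, 2 with limma on log2(TPM + 1) and 12 with the linear limit. Shares of DEGs among channel genes and all genes were 27.7% and 8.66% as reported, 19.6% and 8.02% with no filter beyond a count of 1, 19.4% and 6.97% with a mean TPM of at least 1, 6.38% and 3.37% with limma on log2(TPM + 1), 21.3% and 8.14% with limma on log2(TPM + 0.1) and 48.9% and 47.6% with the linear limit. The median of the channel genes, 0.08 as reported, was -0.06 with limma on log2(TPM + 0.1), -0.07 with the GC-content offset and -0.07 with that offset and a replicate block. The median of all genes moved from 0.03 to -0.08 with limma on log2(TPM + 1) and to -0.11 with limma on log2(TPM + 0.1). With samples left out 1 at a time, channel genes higher ranged from 6 to 10, lower from 9 to 13, DEGs higher from 5 to 8, DEGs lower from 6 to 9, the median from -0.05 to 0.13 and DKK1 from -1.53 to -1.42. Sample numbers did not pair the samples (same-number correlations -0.123, -0.0738 and -0.109), and the replicate block left 7 higher and 11 lower, with KCNIP3 and KCNJ12 lost (38.3% of channel genes and 32.8% of all genes passed). With the GC-content offset and replicate block together, KCNQ1 lost its call (log2 fold change 2.14, edgeR adjusted p = 0.0546). Signs turned only in genes that did not pass as reported. With the GC-content offset, log2 fold changes were 0.14 for CACNA2D1, -0.08 for CACNB1, -0.29 for KCNN4, -0.15 for KCNJ14 and -0.07 for KCNK6. With that offset and the replicate block they were 0.13 for CACNA2D1, -0.08 for CACNB1, -0.29 for KCNN4, -0.19 for KCNJ14 and -0.07 for KCNK6. With limma on log2(TPM + 1) they were -0.02 for CACNA2D2, -0.01 for CACNB2, -0.18 for KCNN4, -0.05 for KCNJ14 and -0.02 for SCN8A. With limma on log2(TPM + 0.1) they were -0.19 for KCNN4, -0.11 for KCNJ14 and -0.03 for SCN8A, and with library size alone -0.05 for KCNN4, -0.01 for KCNJ14 and -0.002 for SCN8A. Left-out samples ranged from -0.2 to 0.53 for CACNB2, -0.08 to 0.15 for KCNN4, -0.05 to 0.62 for KCNMB3, -0.35 to 0.28 for KCNJ14, -0.17 to 0.01 for KCNAB2 and -0.06 to 0.11 for SCN8A. The cause was not tested.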
